A study of Rattus norvegicus with 12 samples.

Results

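The 8 genes Sox10, Foxd3, Erbb3, Gfra3, Ngfr, L1cam, Cdh19 and S100b, known as markers of Schwann cells and of the neural crest from which these cells arise, were followed in RNA sequencing libraries of cultured rat atrial fibroblasts. They were found by symbol, and all 8 of the 8 listed genes were among the 22850 features of the count table. The cells were primary fibroblasts separated from the atria of newborn Sprague-Dawley rats by differential adhesion, which enriches fibroblasts without sorting them from other attached cells. All groups received angiotensin II (AngII) at 1 μmol/L, a hormone that activates fibroblasts, and were kept for 48 h. The AngII group received nothing else, the AngII+HNG group also received HNG, an analogue of the mitochondrial peptide humanin, at 10 μmol/L, and the AngII+MOTS-c group received the mitochondrial peptide MOTS-c at 5 μmol/L. Each peptide was added 1 h before AngII. There were 4 libraries per treatment and 12 in all, called biological replicates by the study, and no group without AngII was analysed here. In each treatment the library names of replicates 2 and 3 share a number, and whether these came from separate cultures is not stated, so the independent n may be 3 rather than 4.

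Schwann cells are the glia of peripheral nerves, and nerve fibres within the atrial wall are accompanied by them. They descend from the neural crest. SOX10 is the transcription factor that maintains this lineage from the crest to the mature glial cell, and it drives genes of the neuregulin response and of myelin. Axons signal to Schwann cells through neuregulin 1, which is bound by ERBB3 and passed on by its partner ERBB2. The low-affinity neurotrophin receptor NGFR, the adhesion molecule L1CAM and the artemin receptor GFRA3 are characteristic of immature and non-myelinating Schwann cells, whereas genes of compact myelin mark myelinating ones.

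Between 27960586 and 38322354 reads were counted per library, so that 3 counts, the number a count of 0 still allows, correspond to 0.0786 to 0.107 CPM. CPM here is the read count scaled to a fixed library total after TMM scaling, a correction for differences in composition between libraries. FPKM, as deposited, also divides by gene length and was used wherever genes were compared with each other. The labelled cell type was checked against marker lists. All 10 of the 10 fibroblast markers had a mean of at least 1 FPKM, and their summed level was 12094 to 13660 FPKM. The libraries also held cardiomyocyte markers, summing to 4110 to 5443 FPKM, and macrophage markers, summing to 135 to 263 FPKM. In such bulk libraries, fewer cells of a type and less RNA per cell cannot be told apart.

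All 8 markers were detected in every library, at low levels. S100b, a calcium-binding protein of glia, had the highest mean at 1.20 ± 0.215 FPKM (SD, n = 12) and was the only marker with a mean above 1 FPKM. It was followed by Ngfr at 0.848 ± 0.130 FPKM and L1cam at 0.673 ± 0.134 FPKM. Gfra3 had a mean of 0.513 ± 0.159 FPKM, Erbb3 of 0.461 ± 0.0749 FPKM and Sox10 of 0.329 ± 0.108 FPKM. Foxd3, a transcription factor of the early neural crest, had a mean of 0.131 ± 0.0558 FPKM. Cdh19, a cadherin of Schwann cell precursors, was lowest at 0.115 ± 0.0456 FPKM. Among the 18385 features with at least 1 count, these levels stood between the percentiles 21.5 (Cdh19) and 36.9 (S100b).

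The order of neighbouring markers was firm at some steps only. S100b was above Ngfr, and Sox10 above Foxd3, in 12 of 12 libraries. Erbb3 exceeded Sox10 in 11 libraries, Ngfr exceeded L1cam in 10, L1cam exceeded Gfra3 in 9 and Gfra3 exceeded Erbb3 in 8. Foxd3 and Cdh19 each had the higher level in 6 of 12 libraries. The ranges of all 7 neighbouring pairs overlapped, and by CPM, without division by length, only 1 of the 8 markers, Sox10, kept its rank.

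Most markers lay well below some relatives or partners of the same pathway and near or above others. Sox9, a SOX factor also expressed by fibroblasts, was at 10.4 FPKM, a median of 31.1 times Sox10 (range over libraries 21.0 to 53.4), whereas Sox8, of the same SOX subgroup, was a median of 0.597 times Sox10. Erbb2, the signalling partner of Erbb3, was a median of 20.6 times Erbb3, and the ligand gene Nrg1 a median of 47.9 times, while the receptor gene Erbb4 was 1.54 times. Sort1, a co-receptor that acts with NGFR on unprocessed neurotrophins, was a median of 36.0 times Ngfr. Ncam1, an adhesion molecule that partners L1CAM, was a median of 42.7 times L1cam, whereas Nrcam, of the L1 family itself, had a mean of 0.240 FPKM, below L1cam. Cdh2, the N-cadherin of fibroblasts and muscle cells, was a median of 570 times Cdh19, and S100a4, an S100 protein abundant in fibroblasts, was 391 times S100b. Artn, which encodes the ligand artemin, was a median of 0.707 times Gfra3. Gfra3 was a median of 4.24 times its signalling receptor Ret (range 2.46 to 17.4), which rested on 9 to 31 counts per library.

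**Figure D1:**
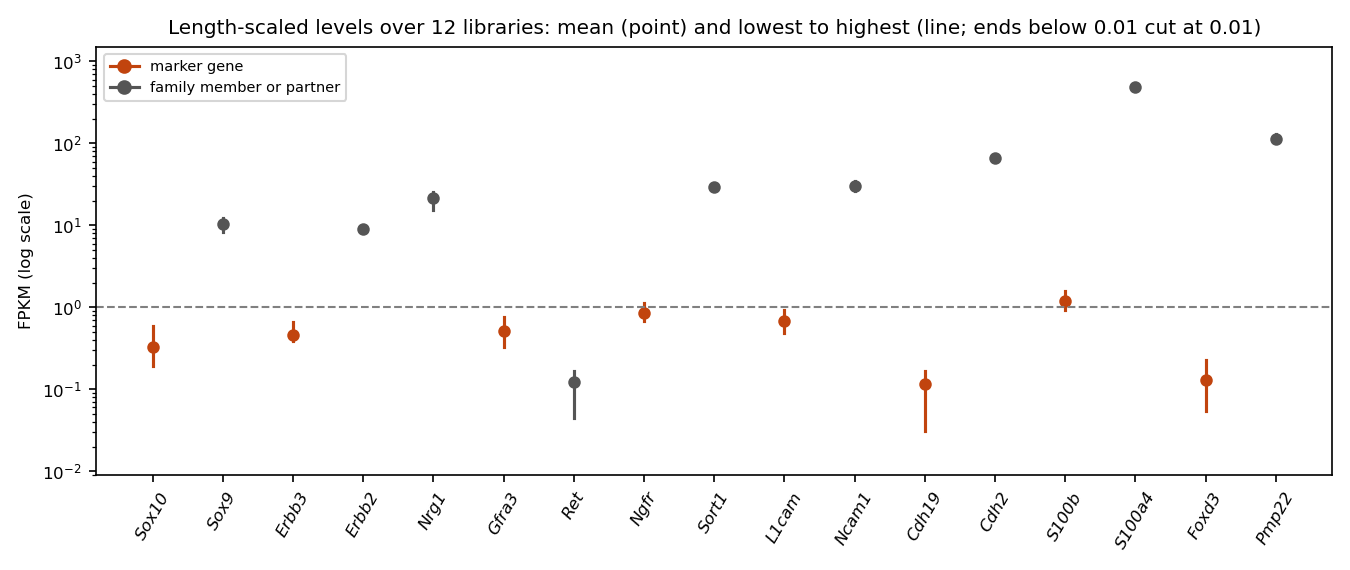
FPKM on a log axis of the 8 markers (orange) and of relatives, partners and myelin genes (grey), with the mean over 12 libraries as a point and the lowest to highest library as a line; the dashed line is 1 FPKM. The markers lie between 0.115 and 1.20 FPKM, whereas Sox9, Erbb2, Nrg1, Sort1, Ncam1, Cdh2 and S100a4 lie above them.

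The myelin list was uneven. Of its 20 genes, 6 had a mean of at least 1 FPKM and 6 a median of at most 3 counts. Pmp22, a peripheral myelin protein that fibroblasts also express, was at 113 ± 10.5 FPKM. Of the 36 genes of the Schwann and glial list, 13 had a mean of at least 1 FPKM and 5 a median of at most 3 counts. The share of Schwann cells in the cultures was not measured.

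No marker passed the adjusted threshold of 0.05 in any of the 3 comparisons in the edgeR quasi-likelihood fit, with p-values adjusted by Benjamini-Hochberg over all tested genes. All 8 passed the filter on low counts each time. Between AngII+HNG and AngII, 0 of 8 were called, against 5.98% of the 14524 genes tested, and 1 of 8, Ngfr, had an unadjusted p below 0.05, against 20.3%. Between AngII+MOTS-c and AngII, 0 of 8 were called, against 0.00690% of 14488 genes, and 1 of 8, Sox10, had an unadjusted p below 0.05, against 5.05%. Between AngII+HNG and AngII+MOTS-c, 0 of 8 were called, against 4.41% of 14448 genes, and 1 of 8, L1cam, had an unadjusted p below 0.05, against 19.3%. DESeq2 called 0 of 7, 0 of 8 and 1 of 6 markers that it gave an adjusted p, the last being L1cam; it gave none to Foxd3 in both HNG comparisons and none to Cdh19 between the peptides.

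The groups did not overlap for 0 of 8 markers between AngII+HNG and AngII, against 13.6% of all genes tested, and for 0 of 8 between AngII+MOTS-c and AngII, against 3.44%. Between the peptides this held for 1 of 8, L1cam, against 12.5%. The median log2 fold change of the 8 markers was 0.24 for AngII+HNG against AngII, beside 0.0043 over all genes. It was 0.16 for AngII+MOTS-c against AngII, beside -0.00076 over all genes. Both comparisons use the same AngII libraries. For AngII+HNG against AngII the median was also 0.29 over macrophage and 0.22 over endothelial markers, and -0.22 over pericyte and smooth muscle markers. The mean was lowest in AngII for 6 of the 8 markers, and the summed level of the 8 ran from 13.1 to 15.0 CPM in AngII, 13.3 to 15.8 in AngII+HNG and 15.2 to 16.3 in AngII+MOTS-c.

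**Figure D2:**
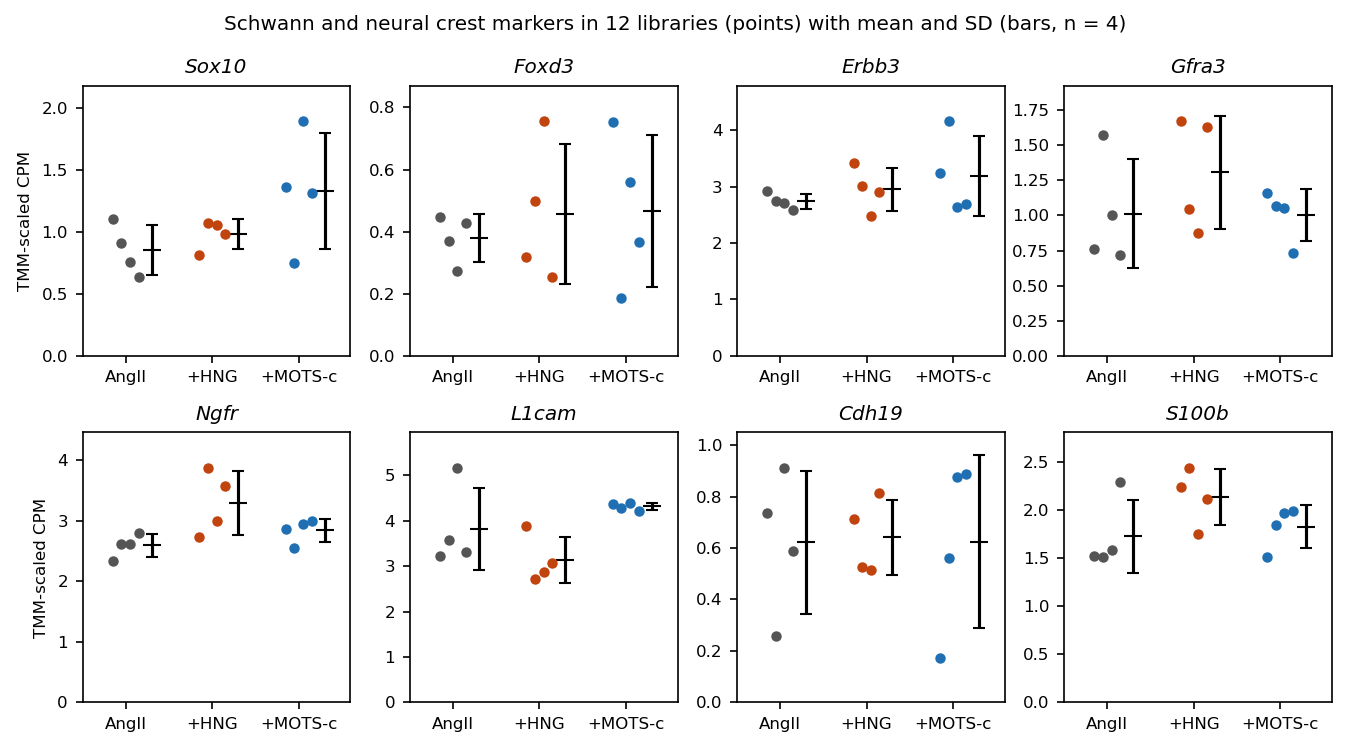
TMM-scaled CPM of each marker in the 12 libraries (points), with the mean and SD of 4 libraries per treatment (bars); every axis starts at 0. The treatments overlap in every panel except L1cam, where AngII+HNG lies below AngII+MOTS-c.

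Sox10 was higher on average with MOTS-c, with libraries that overlapped. Its counts in the AngII replicates 1 to 4 were 42, 32, 25 and 24, or 1.10, 0.913, 0.760 and 0.640 CPM. With HNG they were 23, 41, 35 and 35, or 0.818, 1.07, 1.06 and 0.984 CPM. With MOTS-c they were 47, 28, 54 and 43, or 1.36, 0.746, 1.89 and 1.32 CPM. Thus 3 of the 4 MOTS-c libraries lay above every AngII library, and replicate 2 lay below 3 of them.

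The mean of Sox10 was 0.854 ± 0.200 CPM in AngII and 1.33 ± 0.469 CPM in AngII+MOTS-c (SD, n = 4), a fold of 1.54 with a 95% interval of 1.01 to 2.34. The log2 difference was 0.62 (SE 0.28), with an unadjusted p of 0.0452 and an adjusted p of 0.924 by edgeR's quasi-likelihood test. Without MOTS-c replicate 2 the log2 difference was 0.83 (unadjusted p = 0.00571), and without MOTS-c replicate 3 it was 0.41 (unadjusted p = 0.169), both by edgeR. Of the 8 fits that left out 1 library, 2 kept an unadjusted p below 0.05. The study selected Sox10 on these same libraries for its MOTS-c comparison, so its direction here is not independent evidence. It also reported the same direction for Sox10 by quantitative PCR of separate fibroblast samples, 4 per group, which were not examined here. With HNG the mean was 0.984 ± 0.117 CPM and the fold against AngII was 1.16, with a 95% interval of 0.825 to 1.62 (edgeR adjusted p = 0.675).

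**Figure D3:**
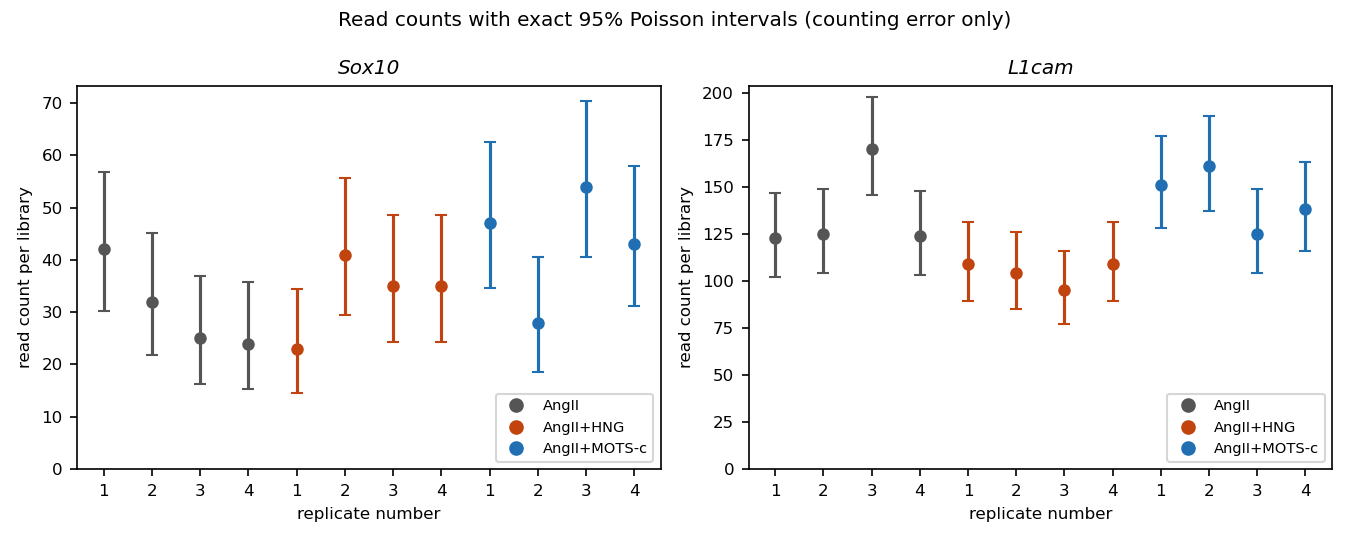
Read counts of Sox10 and L1cam in each library with exact 95% Poisson intervals, which cover counting error only. Intervals of Sox10 span 15.4 to 35.7 for the lowest AngII library of 24 counts and 40.6 to 70.5 for the highest MOTS-c library of 54 counts.

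Foxd3, the other transcription factor of the group, gave no firmer values. It had 17, 13, 9 and 16 counts in AngII, 9, 19, 25 and 9 with HNG, and 26, 7, 16 and 12 with MOTS-c. The treatments overlapped throughout, with folds of 1.20 (95% interval 0.691 to 2.09) for HNG and 1.21 (0.671 to 2.17) for MOTS-c against AngII. At such counts these intervals leave out neither direction.

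Of the receptors, Ngfr had the lowest unadjusted p in the HNG comparison. It had 89, 92, 86 and 105 counts in AngII, or 2.34, 2.63, 2.61 and 2.80 CPM. With HNG it had 77, 148, 99 and 127 counts, or 2.74, 3.88, 2.99 and 3.57 CPM. With MOTS-c it had 99, 96, 84 and 98 counts, or 2.87, 2.56, 2.94 and 3.0 CPM. Replicate 1 of HNG lay below the highest AngII library and the other 3 lay above all of them.

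The mean of Ngfr was 2.59 ± 0.191 CPM in AngII and 3.30 ± 0.523 CPM with HNG (SD, n = 4), a log2 difference of 0.35 (SE 0.14). The unadjusted p was 0.0266 and the adjusted p 0.179 by edgeR. Without HNG replicate 2 the difference was 0.26 (edgeR unadjusted p = 0.106). Summed macrophage markers moved with HNG as well, at 198 to 263 FPKM against 136 to 165 in AngII, and so did endothelial markers, at 34.6 to 37.5 against 29.7 to 32.8 FPKM. Pericyte and smooth muscle markers were lower, at 2777 to 2909 against 3328 to 3444 FPKM. Most of that sum was Acta2, at a mean of 2650 FPKM over the 12 libraries. Its protein, α-SMA, was measured by the study as a marker of fibroblast activation. Of these 3 lists, 4 of 9, 4 of 10 and 0 of 10 tested genes rose and 0, 1 and 4 fell, and their part in the Ngfr values was not tested.

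Erbb3 had 111, 96, 89 and 97 counts in AngII, 96, 115, 82 and 103 with HNG, and 112, 156, 75 and 88 with MOTS-c. The AngII libraries were close together at 2.59 to 2.92 CPM, and the MOTS-c libraries spread from 2.63 to 4.16 CPM. Its folds were 1.08 (0.885 to 1.31) for HNG and 1.17 (0.925 to 1.47) for MOTS-c against AngII, or 0.11 and 0.22 on the log2 scale. The log2 difference was 0.035 for HNG without HNG replicate 1 and 0.065 for MOTS-c without MOTS-c replicate 2. Gfra3 had 29, 55, 33 and 27 counts in AngII, 47, 40, 29 and 58 with HNG, and 40, 40, 30 and 24 with MOTS-c. The folds of Gfra3 were 1.29 (0.832 to 1.99) for HNG and 0.995 (0.662 to 1.49) for MOTS-c, and its groups overlapped in both. Its log2 difference of 0.37 for HNG was 0.65 without AngII replicate 2 (unadjusted p = 0.0396, adjusted p = 0.267 by edgeR) and 0.23 without AngII replicate 4, HNG replicate 1 or HNG replicate 4.

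L1cam was the marker whose HNG and MOTS-c libraries did not overlap, though the difference missed the adjusted threshold. It had 109, 104, 95 and 109 counts with HNG, or 3.88, 2.73, 2.87 and 3.06 CPM. With MOTS-c it had 151, 161, 125 and 138 counts, or 4.37, 4.29, 4.38 and 4.23 CPM. In AngII it had 123, 125, 170 and 124 counts, or 3.23, 3.57, 5.17 and 3.31 CPM. All 4 HNG libraries lay below all 4 MOTS-c libraries, and the AngII libraries overlapped with HNG and extended above MOTS-c.

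The mean of L1cam was 3.13 ± 0.513 CPM with HNG and 4.32 ± 0.0742 CPM with MOTS-c (SD, n = 4), a fold of 0.723 with a 95% interval of 0.596 to 0.876. The log2 difference was -0.47 (SE 0.13), with an unadjusted p of 0.00299 and an adjusted p of 0.0587 by edgeR, just outside the threshold. The adjusted p was 0.0416 by DESeq2 and 0.0211 by edgeR without HNG replicate 1, and 0.0995 to 0.153 without any other single library. It was 0.0498 by edgeR with the library name number as a block, and 0.166 with replicates 2 and 3, which share that number, summed to 1 library. In the block fit replicate 1 of each peptide had a number of its own, so neither added to the difference. The block fit thus repeats in part the fit without HNG replicate 1. Summed pericyte and smooth muscle markers, mostly Acta2, were also lower with HNG, at 2777 to 2909 FPKM against 3171 to 3475 with MOTS-c. Macrophage markers were higher, at 198 to 263 against 135 to 165 FPKM, and so were endothelial markers, at 34.6 to 37.5 against 29.6 to 32.2 FPKM. Their part in the L1cam values was not tested. Against AngII, the fold was 0.821 (0.634 to 1.06) for HNG and 1.13 (0.911 to 1.41) for MOTS-c. These log2 differences of -0.28 and 0.18 depended on AngII replicate 3, the high library. Without it they were -0.11 for HNG and 0.36 for MOTS-c, the latter with an unadjusted p of 0.00957 and an adjusted p of 0.952 by edgeR.

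Cdh19 rested on 28, 9, 30 and 22 counts in AngII, 20, 20, 17 and 29 with HNG, and 6, 21, 25 and 29 with MOTS-c. A single library was low in AngII (replicate 2) and in MOTS-c (replicate 1), and the folds were 1.03 (0.616 to 1.72) and 0.991 (0.514 to 1.91) against AngII. S100b had 58, 53, 52 and 86 counts in AngII, 63, 93, 58 and 75 with HNG, and 52, 69, 56 and 65 with MOTS-c. The folds of S100b were 1.24 (0.942 to 1.62) for HNG and 1.05 (0.800 to 1.39) for MOTS-c against AngII, or 0.31 and 0.075 on the log2 scale. AngII replicate 4 was the high library of its group. Without it these log2 differences were 0.47 for HNG (unadjusted p = 0.0174, adjusted p = 0.152 by edgeR) and 0.24 for MOTS-c.

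**Figure D4:**
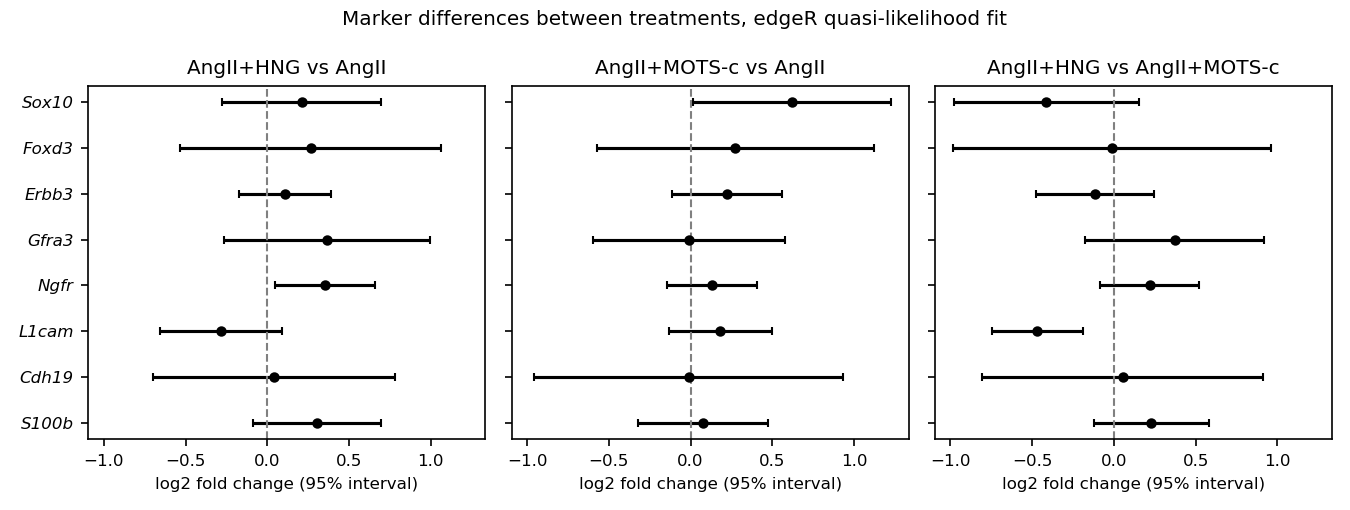
Log2 fold change with 95% interval of each marker in the 3 comparisons, from edgeR's quasi-likelihood fit; the dashed line is no difference. The interval leaves 0 out for Ngfr with HNG, Sox10 with MOTS-c and L1cam between the peptides, before adjustment.

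The spread among replicates differed between markers, and part of it is counting error. The variance within treatments was 1.24 times the Poisson variance for Ngfr, the lowest, and 3.87 times for Cdh19, the highest, with Sox10 at 2.59. The ratio of the highest to the lowest library ran from 1.62 for S100b to 5.25 for Cdh19.

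No pair of markers passed a test of co-variation over the 12 libraries after adjustment. Of the 28 pairs, 14 had a positive and 14 a negative Pearson r of log2 CPM, with a median of -0.0037 and a range of -0.49 to 0.64. The pair with the highest r was Ngfr and S100b (r = 0.64, permutation p = 0.0214, adjusted over 28 pairs 0.599; Spearman's rho = 0.52, permutation p = 0.0848, adjusted 0.762). Without the 2 libraries farthest from the median of Ngfr its r was 0.42. Sox10 and Foxd3 had the highest rho (r = 0.57, permutation p = 0.0522, adjusted 0.730; Spearman's rho = 0.62, permutation p = 0.0375, adjusted 0.598), with r = 0.72 without the 2 libraries farthest from the median of Sox10. After centring on the treatment means, r ranged from -0.64 (Sox10 and Erbb3) to 0.64 (Sox10 and Foxd3) with a median of -0.14, and 0 of 28 pairs had an unadjusted permutation p below 0.05. The points share libraries and depth.

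The genes most like Sox10 over the 12 libraries were not Schwann markers. Among 12537 genes whose mean reached 1 CPM, the nearest was Casp8, an apoptosis protease, at r = 0.86, and the fifth stood at r = 0.76. After centring on the treatment means the nearest were Zfp212 at r = 0.89 and Ppp1r7 at r = 0.87. In the uncentred ranking the markers with at least 1 CPM ran from rank 2261 (Ngfr) to 10192 (Erbb3); Foxd3 and Cdh19 were below that level and were not ranked. After centring the ranked markers ran from rank 2790 (Ngfr) to 12348 (Erbb3, r = -0.64). These correlations are descriptions picked from many genes. Sox10 had 23 to 54 counts per library, and counting error, which is part of its spread, limits any such likeness.

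Some other genes of the same pathways passed the test with HNG, in shares to be read against the 5.98% called over all genes, and the difference from the 8 markers was not tested. Each list also holds the markers that belong to it. Of 24 tested transcription factors of the neural crest and Schwann lineage, 1 rose and 3 fell with HNG against AngII. Etv5, an ETS factor induced by growth factor signalling, rose from 43.9 ± 2.78 to 52.6 ± 1.69 CPM (log2 0.26, edgeR adjusted p = 0.0117). Sox9 fell from 46.4 ± 2.21 to 39.1 ± 3.69 CPM (log2 -0.25, edgeR adjusted p = 0.0448), and Ets1 and Zeb2 also fell, by 0.30 and 0.19 on the log2 scale. The ETS and ZEB factors also act in fibroblasts and vessel cells. Pericyte and smooth muscle markers fell in the same comparison, 4 of 10 of them, whereas 4 of 10 endothelial markers rose and 1 fell. The part of both lists in these values was not tested.

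Of 12 tested myelin genes, 1 rose and 0 fell. Pmp22 went from 203 ± 3.08 to 239 ± 6.48 CPM (log2 0.24, edgeR adjusted p = 0.00227). Of 29 tested genes of the glial list, 3 rose and 0 fell, namely Adam23, Sema3b and Entpd2, with log2 changes of 0.45, 0.54 and 0.78. The median log2 change was 0.11 over the glial list, -0.057 over the myelin list and 0.016 over the transcription factors. Over all genes it was 0.0043. Macrophage and endothelial marker sums were also higher with HNG, and their part in these changes was not tested.

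Of 24 tested genes of neuregulin and ErbB signalling, 0 rose and 2 fell with HNG. Hbegf, a ligand of the EGF receptor, fell from 34.0 ± 0.976 to 26.0 ± 1.34 CPM (log2 -0.39, edgeR adjusted p = 0.0012). Errfi1, a feedback inhibitor of these receptors, fell from 82.7 ± 5.06 to 60.4 ± 2.33 CPM (log2 -0.45, edgeR adjusted p = 0.000348). Nrg1 was at 111 ± 11.9 CPM in AngII and 91.8 ± 9.68 CPM with HNG (edgeR adjusted p = 0.0739). The lower pericyte and smooth muscle markers with HNG stand beside these values too, and their part was not tested.

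Of 22 tested neurotrophin genes, 0 rose and 2 fell. Maged1, an intracellular partner of NGFR, fell from 352 ± 9.19 to 309 ± 6.03 CPM (log2 -0.19, edgeR adjusted p = 0.00853). Ngfr itself had the higher mean with HNG, without passing the adjusted test. None of the 12 genes of the GDNF family, 11 of the L1 family, 9 cadherins or 10 S100 genes tested was called by edgeR in this comparison, and 4, 1, 2 and 1 of them had an unadjusted p below 0.05, against 20.3% of all genes. Of 9 tested markers of peripheral neurons, 1 rose, the neuropeptide gene Npy, from 2.10 ± 0.371 to 5.07 ± 0.874 CPM (log2 1.27, edgeR adjusted p = 0.000766). The macrophage and the pericyte and smooth muscle marker sums given beside Ngfr moved in this comparison too, and their part in the Maged1 and Npy values was not tested. Of 3 tested melanocyte markers, another neural crest lineage, 0 were called by edgeR and 1 had an unadjusted p below 0.05. Of 10 fibroblast, 10 cardiomyocyte and 8 epicardial markers, 2, 1 and 1 rose and 0 fell.

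With MOTS-c against AngII, 0 genes of these lists were called by edgeR. An unadjusted p below 0.05 was reached by 1 of 24 transcription factors (Sox10 itself), 0 of 11 myelin genes, 2 of 28 genes of the glial list (Sox10 again, and Ednrb, which was lower), 2 of 24 ErbB genes, 1 of 12 GDNF family genes, 1 of 22 neurotrophin genes and 3 of 10 S100 genes, against 5.05% of all genes. Of 10 pericyte and smooth muscle markers, 3 also had an unadjusted p below 0.05, all lower with MOTS-c. The summed level of the list, mostly Acta2, was 3171 to 3475 FPKM against 3328 to 3444 in AngII. The part of these markers in the Sox10 values was not tested. Between HNG and MOTS-c, where 4.41% of all genes were called, 2 of 24 tested transcription factors were higher with HNG, Etv1 and Etv5, and 1 was lower, Ets1. Of 28 tested genes of the glial list, 5 were higher with HNG (Adam23, Cadm3, Ednrb, Sema3b and Entpd2) and 1 was lower, the sodium channel gene Scn7a. Of 24 tested genes of the ErbB list, 0 were higher and 3 were lower, Nrg1, Hbegf and Errfi1. Nrg1 was at 91.8 ± 9.68 CPM with HNG and 118 ± 15.1 CPM with MOTS-c (log2 -0.36, edgeR adjusted p = 0.0399), whereas its receptor gene Erbb3 differed by a log2 value of -0.12 (SE 0.17, edgeR adjusted p = 0.752). The macrophage, endothelial and pericyte marker sums given beside L1cam differed between the same libraries, and their part in these differences was not tested.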

How the data were processed

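The libraries were made from mRNA and read paired-end on a DNBSEQ instrument. The authors deposited raw read counts as whole numbers for each gene, and a second table with FPKM values, which correct for gene length and depth. The submitters' processing notes name HISAT2, Picard 1.41 and SAMtools 0.1.18; the counting tool, use of strand and genome build are not given in the sources used here, so no coordinates are given. Groups and replicate numbers were taken from the titles, doses from the study's methods.

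The tests were run in edgeR 4.0.16 under R 4.3.3 (filterByExpr, TMM, glmQLFit and glmQLFTest), each comparison on its own 8 libraries, p-values being adjusted by Benjamini-Hochberg and called below 0.05. Standard errors were derived from the F statistic. Co-variation was tested two-sided with 100000 permutations. The computation was tested on simulated data. Alternatives were RLE scaling, DESeq2 1.42.0, no filter, at least 10 counts in every library, all 12 libraries in 1 fit, limma 3.58.1 on log2(FPKM + 1) and log2(FPKM + 0.1), blocks, the sum of replicates 2 and 3, whose library names share a number, and leaving out each library.

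The depth of 27960586 to 38322354 counts limits the precision of these genes; Poisson intervals cover counting error only.

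The members and the gene lists, 18 in all, were chosen with earlier results of these data known. Named were all members and the genes of the neural, glial and signalling lists with an adjusted p below 0.05, except genes whose own values are not reported here; genes of the other cell type lists were only counted. Their partners, family relatives and the genes most like Sox10 came from a rule that allowed more names than its own ceiling; which of these were named was decided after values were seen.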

Additional observations from a re-analysis of the deposited data

Results flagged for a closer look

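Single libraries stood apart in 3 of 75 groups of 4 libraries examined, by Dixon's test, which flags about 1 in 20 groups by chance. S100b in AngII replicate 4 was at 2.29 CPM, against 1.51 to 1.58 in the other AngII libraries. Sema3b in MOTS-c replicate 1 was at 1.59 CPM, against 2.35 to 2.45. Entpd2 in MOTS-c replicate 4 was at 6.61 CPM, against 4.42 to 4.69.

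The HNG and MOTS-c libraries differed directly for 15 genes of the neural, glial and signalling lists by edgeR at an adjusted p below 0.05, none of them among the 8 markers, in a comparison where 4.41% of all 14448 tested genes were called. They came from 24 transcription factors, 10 myelin, 28 glial, 24 ErbB, 22 neurotrophin and 9 peripheral neuron genes tested. None was called among 12 GDNF family, 11 L1 family, 8 cadherin, 10 S100 and 3 melanocyte genes tested. In the lists of fibroblasts, cardiomyocytes, macrophages, endothelium, pericytes with smooth muscle and epicardium, 2, 1, 3, 3, 3 and 1 further genes were called. For the 15, the log2 difference, HNG minus MOTS-c, was 0.94 for Npy, 0.81 for Sema3b, 0.75 for Entpd2, 0.60 for Ednrb, 0.47 for Adam23, 0.39 for Etv1, 0.39 for Cadm3, 0.25 for Pmp22 and 0.21 for Etv5. It was -0.42 for Errfi1, -0.36 for Nrg1, -0.33 for Ets1, -0.29 for Scn7a, -0.27 for Hbegf and -0.18 for Maged1.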

How the results depend on the processing

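Of 426 recomputed marker differences, 394 kept their direction without crossing the threshold (3 of them, by DESeq2, kept the direction but have no adjusted p), 3 passed it and 29 changed sign without passing it; the cause was not tested. Those that passed were all L1cam between the peptides, so the count of markers called there was 1 with DESeq2, with the library number block and without HNG replicate 1, and 0 with replicates 2 and 3 summed (L1cam adjusted p = 0.166 by edgeR); without each library in turn it was 0 to 1. In both comparisons with MOTS-c, replicate 1 of each group has a library number that no other library there shares. The library number block therefore took no difference from those libraries, much as if they were left out. Sox10 kept its direction in all 3 comparisons. By CPM, 1 of 8 markers kept its FPKM rank.

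Sign changes were as follows, as log2 differences. For HNG against AngII, Foxd3 ranged from -0.079 to 0.47 without single libraries (lowest without HNG replicate 3), and Cdh19 from -0.21 to 0.27; Cdh19 was negative without AngII replicate 2 (-0.21), HNG replicate 4 (-0.10) and HNG replicate 1 (-0.0051). For MOTS-c against AngII, Foxd3 ranged from -0.078 (without MOTS-c replicate 1) to 0.56 and Gfra3 from -0.14 to 0.28. Gfra3 was 0.016 with the replicate block, 0.061 with replicates 2 and 3 summed, 0.0017 and 0.024 with limma at the pseudocounts 1 and 0.1, and 0.28 and 0.11 without AngII replicate 2 or MOTS-c replicate 4. Cdh19 was 0.40 with the library number block, 0.0015 with limma at the pseudocount 1, and 0.08, 0.22, 0.31 and 0.036 without AngII replicates 1 or 3 or MOTS-c replicates 1 or 2. For HNG against MOTS-c, Foxd3 ranged from -0.36 to 0.33 without single libraries and Erbb3 from -0.20 to 0.033; Foxd3 was 0.012 with the replicate block, 0.42 with the library number block, 0.0053 with limma at the pseudocount 0.1, and 0.11, 0.20, 0.33 and 0.08 without HNG replicates 1 or 4 or MOTS-c replicates 1 or 3. Erbb3 was 0.033 without MOTS-c replicate 2. Cdh19 was -0.32 with the library number block and -0.09, -0.27 and -0.0032 without HNG replicate 4 or MOTS-c replicates 1 or 2.

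Counts over all genes moved more. HNG against AngII gave 869 called genes in the main fit and 577 with replicates 2 and 3 summed. Without single libraries it gave 431 (without AngII replicate 1) to 932. It gave 1192 with DESeq2, 1113 with the library number block, 1111 with the replicate block and 1035 with all 12 libraries in 1 fit. MOTS-c against AngII gave 4 with DESeq2, 2 with the replicate block, 0 with all 12 libraries in 1 fit and with replicates 2 and 3 summed, and 0 to 3 without single libraries. HNG against MOTS-c gave 637 in the main fit, 1034 with DESeq2, 975 with all 12 libraries and 1054 with the replicate block. Without single libraries it gave 322 (without MOTS-c replicate 2) to 625.

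Libraries sharing a replicate number correlated at -0.0276 to 0.245 in their deviations from group means, and not every pair exceeded 0.1 in any comparison. The HNG library correlated best with the AngII library of its own number for replicate 4. The MOTS-c library did so with AngII for replicates 1, 3 and 4, and the HNG library with MOTS-c for replicates 2, 3 and 4. The main fits did not treat them as pairs, and these values do not settle whether they are. The replicate block left 0 markers called in each comparison.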
